A study of Arabidopsis thaliana with 2 samples.

Results

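This account is about the Arabidopsis genes whose capped transcripts began at more than 1 place. The 2 libraries were full-length cDNA of wild type Col-0 inflorescences that carried unopened floral buds, 2 biological replicates of 1 condition with 10 µg of total RNA each, sequenced on the PacBio platform with the Iso-seq method, in which 1 read spans a cDNA from its 5′ to its 3′ end. The deposited files list aligned reads and label a 5′ end as capped when the read begins with a G that the genome lacks, since reverse transcriptase copies the cap as such a base. The label is not proof of a cap, and how often it is wrong was not measured here. The paper names truncated 5′ ends, from premature template switching or degraded RNA, as a major source of assembly error. A member is a nuclear protein-coding gene with at least 20 cap-labelled reads over both replicates and with 2 or more 5′ sites (ends within 10 nt merged) that lie at least 100 nt apart and hold 20% or more of these reads each. The rule found 68 genes among 2975 with enough cap-labelled reads, or 2.29%. The members were thus chosen by these counts, distances and shares, which are given as a description, with no test. For each gene the most-read pair of such sites was taken, here called the upstream and the downstream start, and its position is the base where most reads began. In CYP38, AIM1, ALDH3H1 and RGLG2, with 3 sites each, the gene's most-read site is not in the pair. That site lay under 100 nt from each of the others. Replicate 1 gave 267715 and replicate 2 gave 255215 aligned reads, of which 1204 and 1288 were cap-labelled reads of the 68 genes.

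Most plant genes have a promoter that places RNA polymerase II at a narrow or a broad cluster of first bases. Where a gene uses separate clusters, its transcripts differ at the 5′ end. The change can lengthen the 5′ leader, replace the first exon, or remove the start codon, so that a ribosome that scans from the cap meets another ATG first. In plants, alternative starts of this kind are known to add or remove targeting peptides for mitochondria, plastids and peroxisomes. The tissue label was checked against marker genes. The floral homeotic genes AP1, AP3, PI, AG and SEP3 together had 213.5 and 198 reads in replicates 1 and 2, the anther genes ATA20, ATA7 and AMS had 961 and 1085, and the root genes PHT1;1 and TIP2;3 had 0 in both, with 7 and 9.14 reads of SHR.

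The loss of a start codon is clearest in the sequence. The following 30-base stretches begin at the annotated start codon of the longest protein, on the transcript strand of TAIR10.1. Capitals mark the start codon and, farther along, the base where the downstream start lies. In AN3 the second ATG in capitals is the next in-frame one.
AN3, chr5:10649591-10649620, minus strand: ATGcaacagcAcctgATGcagatgcagccc
AT4G37550, chr4:17643684-17643713, plus strand: ATGgctccactGagtccaagagtagtggtg
AlaAT1, chr1:5922771-5922800, plus strand: ATGcGgagattcgtgattggccaagctaaa
ATMPK8, chr1:6247553-6247582, minus strand: ATGggtggtggtgggaatctcGtcgacggt
In FPS1 the downstream start lay farther inside, and the next in-frame ATG, shown in capitals in the second stretch, came 41 codons after the annotated one.
FPS1 annotated start codon, chr5:19345297-19345326, plus strand: ATGagtgtgagttgttgttgtaggaatctg
FPS1 next in-frame ATG, chr5:19345420-19345449, plus strand: ATGgagaccgatctcaagtcaacctttctc

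A second set shows the bases 38 to 9 before a start, for starts with a TATA box, the promoter element that positions the polymerase. Capitals mark TATAAA or TATATA.
KAT5 upstream, chr5:19817845-19817874, minus strand: gTATATAtaatcttgaacaatcggttatct
MS2 upstream, chr3:957050-957079, plus strand: tttgcTATAAAtaagcttaacacagaacac
AT2G33620 upstream, chr2:14233933-14233962, plus strand: cacTATATAtatattcttgtctaaagaaaa
AT2G33620 downstream, chr2:14234179-14234208, plus strand: ttatgttTATATAattttcatctttaatct
SWEET3 upstream, chr5:21574338-21574367, minus strand: ctatTATATAtatacacacccattatagac
SWEET3 downstream, chr5:21574044-21574073, minus strand: ctTATATAtggccacttcacaggaaacgga
AN3 downstream, chr5:10649619-10649648, minus strand: tcaggtttTATATAaaatagcaaaagaaat
AlaAT1 downstream, chr1:5922737-5922766, plus strand: tttttagTATAAAtcccataccacacaatc

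The distance between the starts, counted on the genome with introns included, had a median of 137 nt and ran from 100 to 1664 nt. It was under 150 nt in 43 genes and 500 nt or more in 6. The genes lay on all chromosomes, with 18, 6, 10, 15 and 19 on chromosomes 1 to 5. In 50 genes the downstream start lay in the first exon of the upstream transcript, in 12 in its first intron and in 6 in a later exon. The first intron of the reads differed between the starts in 19 genes, with a median distance of 246 nt, and was the same in the other 49, with a median of 123 nt. Where the downstream start lay in the first intron or a later exon, the distance includes intron sequence, so these medians are not of like measure. In 53 genes exactly 2 sites reached 20%, and in 15 genes 3 did. A merged site was a median of 10 nt wide, from 1 to 42 nt.

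**Figure D1:**
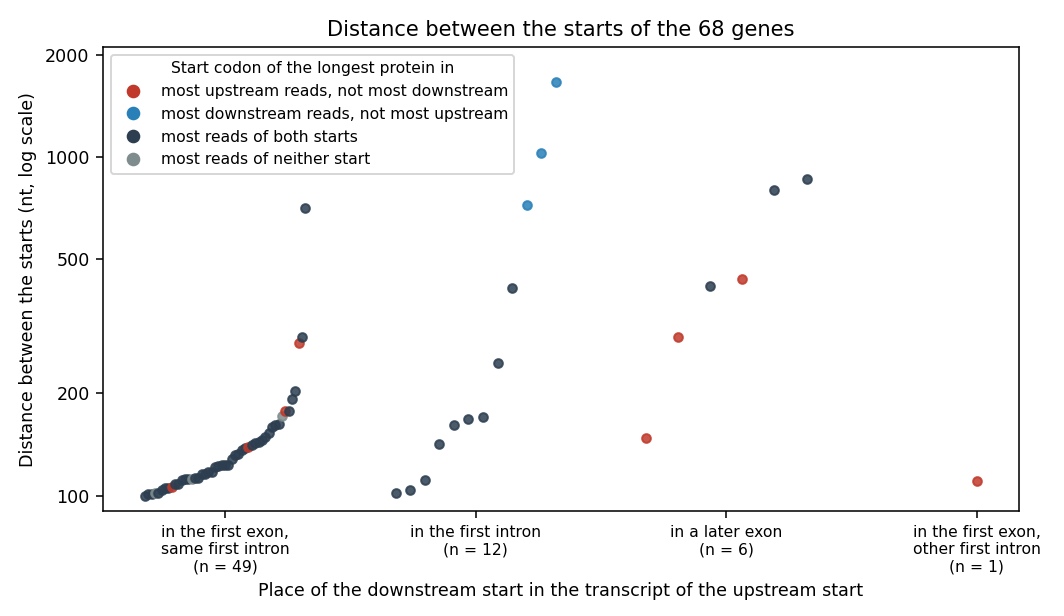
Each point is 1 of the 68 genes, placed by where its downstream start lay in the most frequent transcript of the upstream start (horizontal groups) and by the distance between the starts in nt (vertical, log scale), with colour for the start of which 50% or more of the reads held the start codon of the longest protein. The 49 genes with a shift inside the same first exon lie between 100 and 707 nt, and the 3 genes whose start codon was in most downstream but not most upstream reads are all in the first-intron group.

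The members just inside the rule's limits were XT2 and AT4G33150, each with a less-read start at exactly 20% of the reads, AIM1 at 100 nt and ABA4 at 101 nt, and MPK17 and AT4G33150 with 20 reads each. Just outside were FAD7 at 19.6% and AT4G21450 at 19.5%, AT5G05100 and IAA9 with sites 99 nt apart, and PRS3 and AT1G52190 with 19 reads. The less-read start held under 25% of the reads in 31 of the 68 members, and in a further 49 genes such a start held between 15% and 20%.

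In 8 members 50% or more of the upstream reads and under 50% of the downstream reads held the start codon of the longest annotated protein. In all 8, 100% of upstream reads and 0% of downstream reads held it. In 4 of them the first intron was the same for both starts (AN3, AT4G37550, FPS1 and AlaAT1), and in 4 it differed (ATMPK8, PPT1, GGH1 and SWEET3).

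FPS1 makes farnesyl diphosphate, the precursor of sterols and other isoprenoids, and is known to give a long protein that enters mitochondria and a short cytosolic one. It is AT5G47770 on chromosome 5. The upstream start at 19345190 had 7 and 6 of the 22 and 20 cap-labelled reads in replicates 1 and 2, and the downstream start at 19345367 had 4 and 6. The upstream share was 31.8% (95% Wilson interval 16.4 to 52.7) in replicate 1 and 30% (14.6 to 51.9) in replicate 2, so the share differed by far less than its intervals. The upstream reads had a leader of 107 nt, which held 2 ATGs. The downstream start lay at base 71 of the coding sequence, 53 nt before the next in-frame ATG. No other ATG lay between that start and this ATG. The protein from this ATG would lack 41 of 384 residues, or 10.7%.

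AN3, also on chromosome 5 (AT5G28640), is a transcriptional coactivator that promotes cell proliferation in leaves. Its upstream start at 10649892 had 6 and 7 reads, all at 1 base, and its downstream start at 10649610 had 8 and 7, of 25 and 22. The starts lay 282 nt apart in 1 exon. The downstream reads began at base 11 of the coding sequence, and the next in-frame ATG followed after only 5 nt, at residue 6 of the 210-residue protein. A protein from there would lack 5 residues, or 2.38%. The first annotated start codon in most downstream reads was that of a 148-residue protein. Label-only reads, whose 5′ label lacks the untemplated G, were not used to choose the members. They counted 4 at the upstream and 12 at the downstream start of AN3.

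AlaAT1 (AT1G17290), an alanine aminotransferase of mitochondria, had 4 and 6 reads at its upstream start (5922636) and 8 and 7 at its downstream start (5922775), of 19 in each replicate. The downstream start was more read in both replicates. It lay at base 5 of the coding sequence, within the second codon, and the next in-frame ATG was 158 nt on, with no other ATG between. The protein from there would lack 54 of 543 residues.

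AT4G37550, annotated as an acetamidase or formamidase, had 10 and 4 upstream reads and 3 and 6 downstream reads, so that the more-read start of the pair was not the same in the replicates. Its downstream start lay at base 12 of the coding sequence. The next in-frame ATG lay 133 nt on, after 2 other ATGs, and 48 of 456 residues preceded it.

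Among the 4 genes with another first intron, PPT1 (AT4G23660), a polyprenyltransferase of ubiquinone synthesis, had 3 and 4 upstream reads and 7 and 9 downstream reads, of 11 and 14. Its downstream start was the more-read one in both replicates, at 63.6% and 64.3% of the reads. It lay 434 nt from the upstream start, at base 131 of the coding sequence, and 85 of 429 residues came before the next in-frame ATG. The 125 nt leading to that ATG held 3 others.

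SWEET3 (AT5G53190), of a family of sugar transporters, had 12 and 4 reads at its upstream start and 2 and 3 at its downstream start, which is the smallest number of downstream reads among the 8 genes. The downstream start lay in the second exon, 294 nt away, and 46 of 263 residues came before the next in-frame ATG. ATMPK8, a mitogen-activated protein kinase, had 3 and 5 upstream reads and 7 and 4 downstream reads. Its downstream start lay at base 22 of the coding sequence, and 83 of 589 residues preceded the next in-frame ATG.

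GGH1 (AT1G78660), a gamma-glutamyl hydrolase that trims the glutamate tail of folates, had a second annotated start codon in its downstream reads. Its starts lay 110 nt apart and had 8 and 4 upstream reads and 4 and 3 downstream reads. The upstream reads led, after 57 nt that held 2 ATGs, to the annotated start codon of a protein of 348 residues. The downstream reads kept the sequence that the upstream reads spliced out and led, after 60 nt, to an annotated start codon of a protein of 347 residues.

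**Figure D2:**
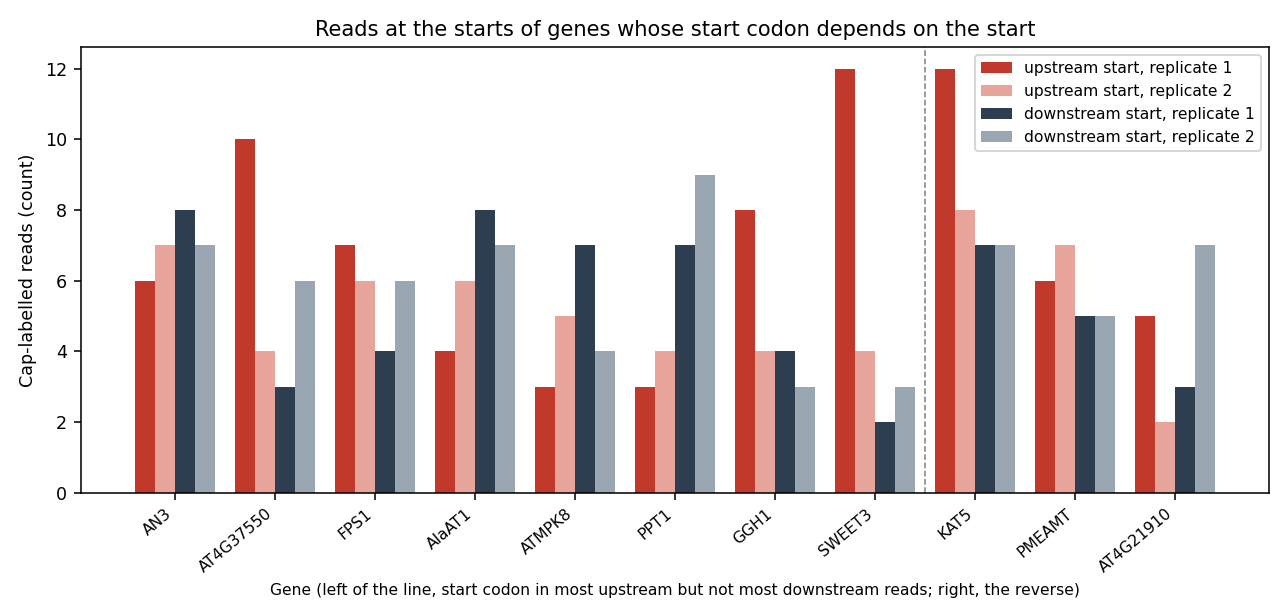
Bars give cap-labelled reads (count, vertical) at the upstream start (red, replicate 1 dark and replicate 2 light) and the downstream start (blue-grey, the same shading) of the 11 genes named below the axis. In the 8 genes left of the dashed line most upstream but not most downstream reads held the start codon, in the 3 right of it most downstream but not most upstream reads did, and no bar exceeds 12 reads.

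In 3 members the relation was turned round, as the longest protein's start codon was in 50% or more of the downstream reads and in under 50% of the upstream reads. All 3 had their downstream start in the first intron of the upstream transcript. KAT5 (AT5G48880) is a 3-ketoacyl-CoA thiolase of fatty acid β-oxidation, known to give a peroxisomal and a cytosolic form. Its upstream start, at 19817836 on chromosome 5, had 12 and 8 reads of 31 and 20, which made 38.7% (95% Wilson interval 23.7 to 56.2) and 40% (21.9 to 61.3). Its downstream start, 722 nt away at 19817114, had 7 and 7. The codon of the 457-residue protein was in 100% of downstream reads and 10.0% of upstream reads. Upstream reads led, after a leader of 94 nt, to the annotated start of a protein of 414 residues, and downstream reads, after 93 nt, to that of 457 residues.

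PMEAMT (AT1G48600), a methyltransferase of phosphocholine synthesis, had 6 and 7 reads at an upstream start and 5 and 5 at a downstream start 1028 nt away, of 18 and 31 reads. The upstream start lay 959 nt before the nearest annotated 5′ end of the gene and the downstream start 69 nt inside it. The longest protein's codon was in 7.69% of upstream reads and 100% of downstream reads. Most upstream reads skipped the exon with that codon and led, after 137 nt, to an annotated start of a 475-residue protein, in place of 491 residues.

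AT4G21910, of the MATE family of efflux transporters, had the largest distance of the 68 genes, 1664 nt. It had 5 and 2 upstream reads and 3 and 7 downstream reads. The upstream start coincided with an annotated 5′ end and led after 53 nt to a protein of 507 residues, while the downstream start led after 100 nt to a protein of 509 residues. The codon of the longer protein was in 42.9% of upstream reads.

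**Figure D3:**
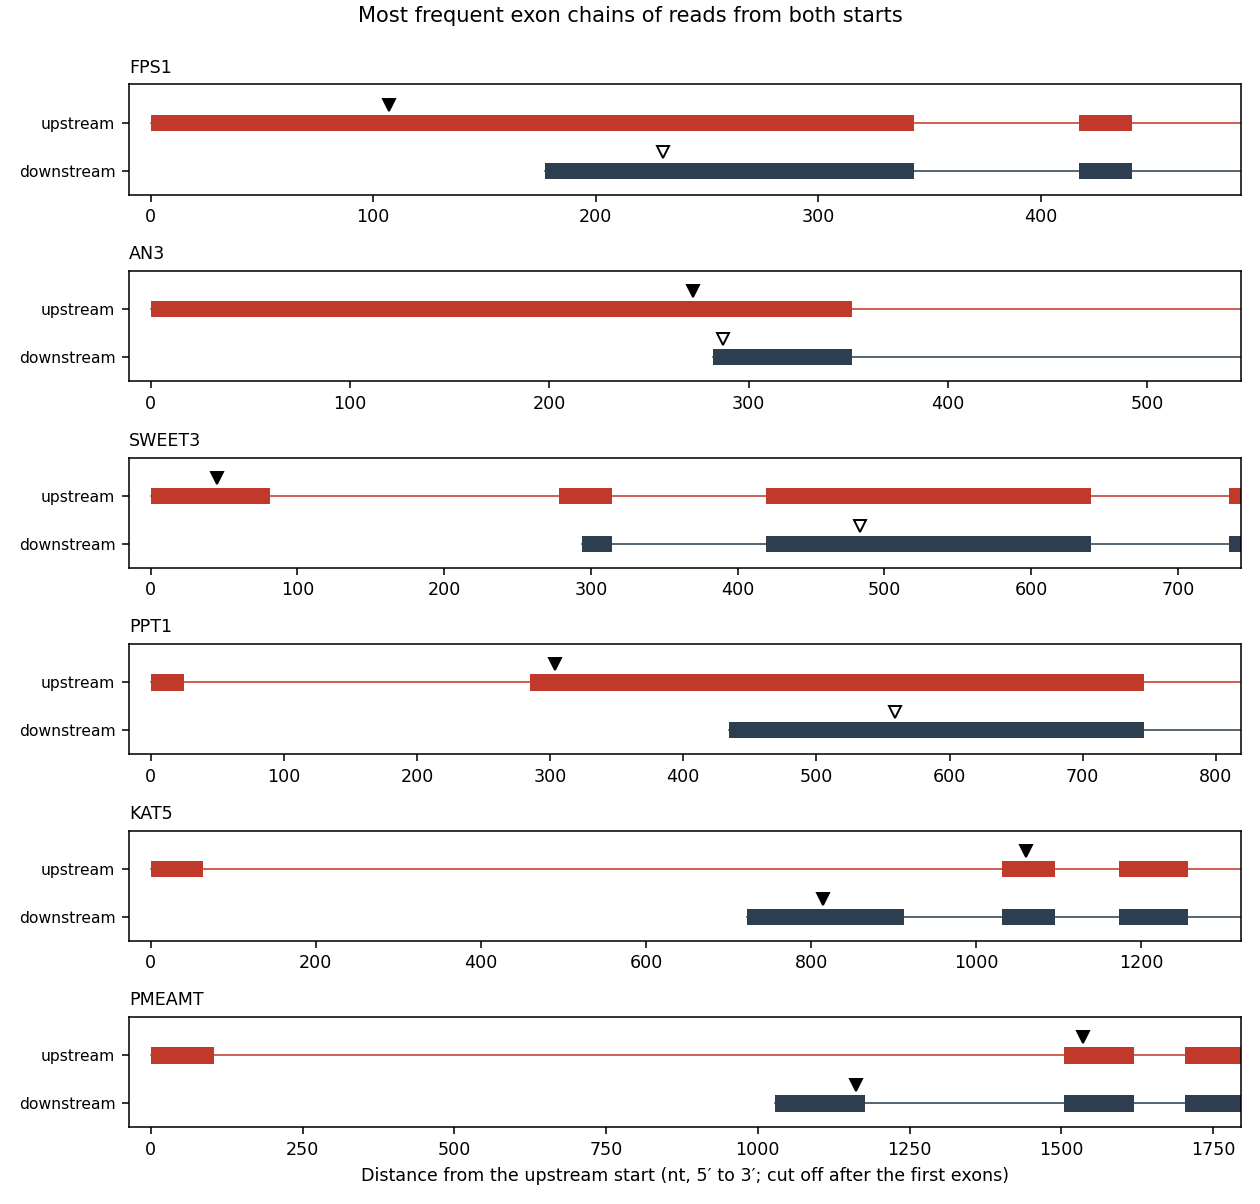
Most frequent exon chains (boxes, exons; lines, introns) of reads from the upstream start (red, top row of each panel) and the downstream start (blue-grey, bottom row) of 6 genes, by distance in nt from the upstream start, to scale within each panel. Filled triangles mark the first annotated start codon that most of these reads held and open triangles the next in-frame ATG where they held none of the longest protein's; in FPS1, AN3, SWEET3 and PPT1 the downstream start lies past the filled triangle of the upstream row, and in KAT5 and PMEAMT it lies in the first intron.

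In 3 members most reads of neither start held the longest protein's codon. In AT4G33150, the bifunctional lysine-ketoglutarate reductase and saccharopine dehydrogenase, both starts were internal, and both led to an annotated protein of 482 residues, where the longest has 1064. It had 2 and 2 upstream and 4 and 7 downstream reads, and 0% of its upstream reads and 36.4% of its downstream reads carried a 3′ label. In AT5G65620, a metalloprotease, the upstream start (7 and 6 reads) lay 4 nt before an annotated start codon of a 791-residue protein, and no annotated codon lay in most reads of the downstream start (6 and 3 reads). In E13L3, a glucanase-like protein, both starts led to 194 residues where the longest protein has 213.

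In the other 54 members, most reads of both starts held the start codon, and the starts differed in the 5′ leader. The spliced leader had a median of 202.5 nt from the upstream start (58 to 787 nt) and 75.5 nt from the downstream start (1 to 338 nt). At the most-read start of the other eligible genes it was 76 nt, over 2770 genes. The upstream leader was the longer one in 49 genes, as the rule and the naming require where both starts share the first exon. In the other 5 the downstream start lay in the first intron of the upstream transcript, which upstream reads spliced out. An ATG stood in 53.7% of upstream leaders and 29.6% of downstream leaders, against 13.5% of the leaders of the other eligible genes. By gene, 16 had an ATG in the upstream leader only, 3 in the downstream leader only, 13 in both and 22 in neither. Upstream leaders most often held an ATG and also had the longest median. Downstream leaders and those of the other eligible genes had like medians, 75.5 and 76 nt, but unlike shares with an ATG. The part of length in these shares was not tested.

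**Figure D4:**
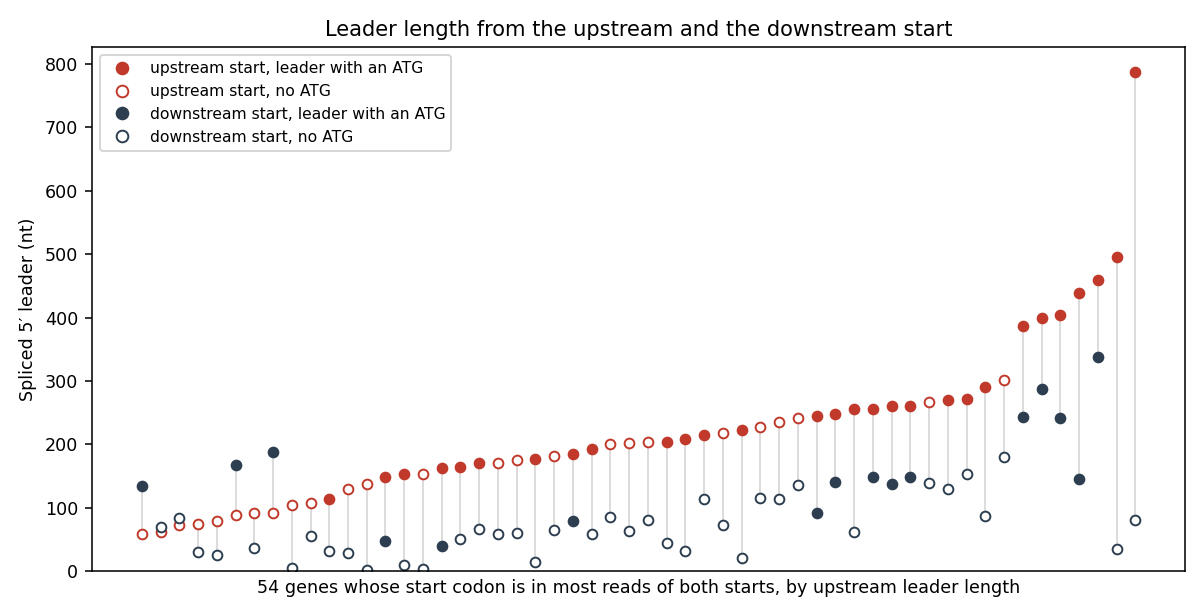
Each column is 1 of the 54 genes whose start codon was in most reads of both starts, ordered by upstream leader length, with the spliced leader in nt (vertical) from the upstream start (red) and the downstream start (blue-grey), filled where the leader held an ATG. Red points lie above blue-grey ones in 49 columns, and 29 red and 16 blue-grey points are filled.

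The most-read members with a shift inside the same first exon were AT5G08540, CBR, ACAT2, AT1G55360 and SBPASE. AT5G08540, annotated as a ribosomal RNA methyltransferase, had more cap-labelled reads than any other member, 60 and 64. Its upstream start had 16 and 24 reads (26.7% and 37.5%) and its downstream start 44 and 40 (73.3% and 62.5%), so the downstream start was the more-read one in both replicates. The upstream start lay 200 nt before the annotated 5′ end and gave a leader of 291 nt with 5 ATGs, while the downstream start lay 4 nt inside that end and gave 87 nt with none.

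CBR, an NADH:cytochrome b5 reductase, had 11 and 8 upstream and 14 and 8 downstream reads, of 46 and 31. Its downstream leader was only 10 nt long from the most-read base, but that site was 40 nt wide and reached the start codon. ACAT2, the thiolase that opens the mevalonate pathway, had 15 and 12 upstream and 12 and 11 downstream reads, with leaders of 182 and 65 nt. AT1G55360, of a family of unknown function, had 10 and 12 upstream and 7 and 8 downstream reads. SBPASE, sedoheptulose-bisphosphatase of the Calvin cycle, had 10 and 4 upstream and 13 and 18 downstream reads, of 30 and 25. In ACAT2 and AT1G55360 the upstream start was the more-read one in both replicates, and in SBPASE the downstream start.

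Among members with another first intron and the start codon in most reads of both starts, MS2 (AT3G03780), a methionine synthase, had the most reads. Its upstream start at 957088 on chromosome 3 had 17 and 23 reads of 31 and 39, and its downstream start at 957230, inside the first intron of the upstream transcript, had 12 and 12. Both first exons were spliced to the same acceptor, so the intron ended at 957577 in each, and the leaders were 72 and 84 nt. AAC2, the mitochondrial ADP/ATP carrier, had the same arrangement, with 14 and 15 upstream and 6 and 2 downstream reads. In AT2G33620, an AT-hook DNA-binding protein, the upstream start had 9 and 7 reads and the downstream start 9 and 2, and only the downstream leader held ATGs, 4 in 168 nt. Its most frequent downstream first intron was in only 36.4% of the downstream reads.

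AT2G11910, an uncharacterized protein, had 3 and 7 upstream and 9 and 2 downstream reads of 31 and 16, so the more-read start of the pair differed between the replicates. In AT3G51950, a zinc finger and RNA recognition motif protein, the downstream start lay 861 nt away in a later exon. It had 6 and 6 reads, against 3 and 6 at the upstream start. The leader was 496 nt from the upstream and 35 nt from the downstream start. Only 55.6% of the 9 upstream reads held the start codon and 44.4% had a 3′ label, so the upstream leader rests on few reads. AT4G31180, an aminoacyl-tRNA synthetase, had 4 and 7 upstream and 7 and 11 downstream reads, 796 nt apart. Its downstream start lay just past the end of the first intron of the upstream transcript, and its leaders were 222 and 21 nt.

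The other members that are named here by their role were picked out after their values were seen. Besides FPS1 and ACAT2, the sterol pathway was represented by SQE3, a squalene epoxidase, with 6 and 3 upstream and 9 and 9 downstream reads 101 nt apart. The malate dehydrogenases MDH of plastids and PMDH1 of peroxisomes had 7 and 6 upstream reads with 15 and 13 downstream, and 1 and 7 upstream reads with 8 and 7 downstream. In MDH the downstream start led in both replicates by about as much, whereas the upstream start of PMDH1 was nearly unread in replicate 1. FAB1, a condensing enzyme of plastid fatty acid synthesis, had equal reads at both starts, 7 and 6 at each. NHO1, a glycerol kinase, had 9 and 7 upstream and 6 and 8 downstream reads, and its upstream leader of 209 nt held 2 ATGs where the downstream leader of 31 nt held none. AT4G11380, annotated as an adaptin of vesicle coats, had the longest leader, 787 nt with 7 ATGs from an upstream start with 3 and 3 reads, against 80 nt with none from a downstream start with 3 and 7. At the other end, 4 downstream leaders were under 10 nt, in AT5G49100 (1 nt), AGL31 (4 nt), AIM1 (5 nt) and, counted to its next in-frame ATG, AN3 (5 nt).

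LAP3, a protein that pollen needs for its outer wall, had 6 and 3 upstream and 8 and 1 downstream reads, 416 nt apart and with the downstream start in a later exon. Its upstream start lay just past the annotated end of a neighbouring gene on the same strand. MPK17, a further mitogen-activated protein kinase, had 5 and 8 upstream and 4 and 1 downstream reads. Its downstream leader of 188 nt was longer than the upstream one of 91 nt and held 3 ATGs where the upstream leader held none. That downstream leader rests on few reads, and the most frequent downstream first intron was in only 40% of them.

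Several regulators of growth and flowering were also among the members. SEP1, a floral MADS-box factor, had 11 and 3 upstream and 4 and 6 downstream reads. CRY2, a blue light receptor, had 4 and 12 upstream and 3 and 5 downstream reads. EIN3 of ethylene signalling had 4 and 10 upstream and 2 and 7 downstream reads, BIN2 of brassinosteroid signalling 11 and 7 upstream and 5 and 3 downstream, and ABI1 of abscisic acid signalling 4 and 3 upstream and 3 and 3 downstream. All 5 shifted inside the same first exon. The upstream start was the more-read one in both replicates in CRY2, EIN3 and BIN2.

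Of 17 genes listed as having published alternative starts, 10 had at least 20 cap-labelled reads, and 2 of these, KAT5 and FPS1, were members. The list did not separate starts of transcription from starts of translation, so a gene that is no member need not be a missed capped start. In the isopentenyl diphosphate isomerase genes IPP1 and IPP2 the most-read start held 78.4% of 37 reads and 76% of 25. In MDAR6, a monodehydroascorbate reductase, it held 33.3% of 24 and in CA1, a carbonic anhydrase, 49.5% of 93, but neither had a pair of qualifying sites 100 nt apart. The 7 others had between 1 and 18 reads.

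The positions of the starts were set over both replicates together. Of 134 starts read in both replicates, 75 had the same most-read base in each and 126 had most-read bases within 10 nt. Both starts were read in both replicates in 67 of the 68 members. Both starts reached 20% in replicate 1 in 47 members, in replicate 2 in 44 and in each of them in 29. The number of reads per start and replicate had a median of 5, so the interval of a single share is wide. The upstream share among reads of the pair differed between the replicates by a median of 13.5 percentage points. The upstream start was the more-read one of the pair in both replicates in 17 genes and the downstream start in 17, and the other 34 were tied in a replicate or differed.

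**Figure D5:**
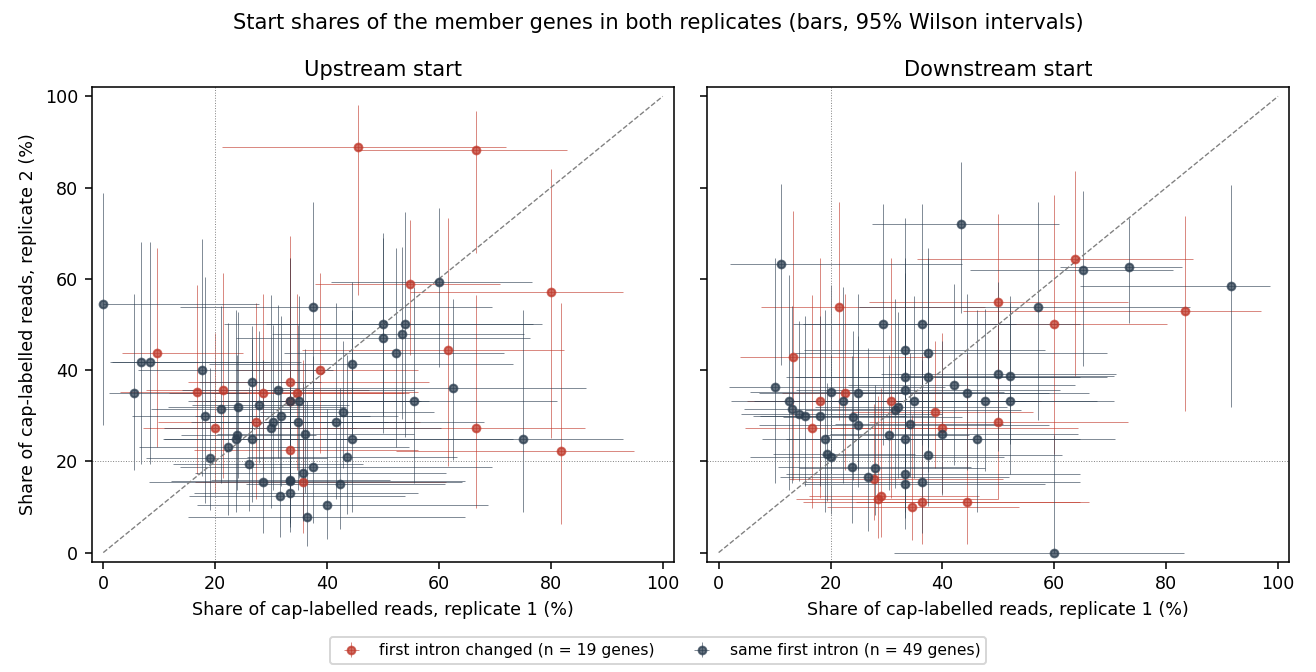
Share of a gene's cap-labelled reads (%) at the upstream start (left panel) and the downstream start (right panel) in replicate 1 (horizontal) and replicate 2 (vertical), with red points for the 19 genes whose first intron changed, blue-grey points for the 49 others, 95% Wilson intervals, a dashed line of equality and dotted lines at 20%. Both starts passed 20% in each replicate in 29 genes, and the intervals span much of each axis.

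A replicate that took no part in the choice gives an independent view. Applied to replicate 1 alone, the rule found 22 genes among 1360, and in replicate 2 both starts (within 10 nt) were read in 21 of them and reached 20% in 9. Applied to replicate 2 alone, it found 21 genes among 1298. In replicate 1 both starts were read in all 21 of these and reached 20% in 13. A start counted as read from 1 read on, and no like share was taken for other genes. Members made up 16 of the 22 genes and 16 of the 21. Enough reads in replicate 1 alone were present in 23 members, and in replicate 2 alone in 29. The less-read start had a median share of 18.6% in replicate 2 for the first set and 24% in replicate 1 for the second. Found in each replicate alone were 8 members, namely FPS1, KAT5, AN3, MS2, NHO1, MDH, ACAT2 and AT5G08540, and AT3G14100, which is not a member. This counts genes, as the 2 starts found were not required to be the same ones. In AT3G14100 the downstream start found in replicate 1 had 8 reads there and 1 in replicate 2. The one found in replicate 2 had 4 reads there and 1 in replicate 1. The downstream reads also differed between the 2 searches in KAT5 and FPS1.

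The share of the most-read start was compared between replicates with a two-sided Fisher exact test in each of the 2975 genes, adjusted by the Benjamini-Hochberg method over all of them. It passed an adjusted p of 0.05 in 0 of 2975 genes (0%) and in 0 of the 68 members. Without adjustment, 67 genes (2.25%) and 3 members had p under 0.05, namely TRM27, ABA4 and PHT1;6, with adjusted p = 1 in the Fisher exact test for each. In TRM27, the sole member with starts read in 1 replicate each, the upstream start had 0 of 10 and 6 of 11 reads and the downstream start 6 and 0. Even this swap was not called, so at the members' depth the absence of calls does not show equal shares. In ABA4, of carotenoid metabolism, the downstream start had 1 of 9 and 12 of 19 reads. In PHT1;6, a phosphate transporter, the upstream start had 9 of 11 and 2 of 9. As the test sets 2 libraries against each other, it compares those libraries.

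A further question was whether reads from the most-read start ended elsewhere than reads from the other starts. With a two-sided Fisher exact test of start against 3′ end over the pooled cap-labelled reads, 0 of 2975 genes (0%) had an adjusted p under 0.05 and the same direction in both replicates, and so had 0 of 68 members. With so few reads per member, the absence of calls does not show that start and 3′ end were unrelated. Without adjustment, 49 genes and 2 members had p under 0.05. In AT4G31180, 7 of 18 reads of the most-read start and 14 of 16 others ended at the most-read 3′ site (Fisher exact p = 0.0052, adjusted p = 1), in the same direction in both replicates. In SEP1 these were 6 of 14 and 25 of 32, and the direction differed between the replicates.

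Label-only reads tell where 5′ ends fell without the cap evidence. Of the label-only reads of the members, 304 of 773 in replicate 1 and 375 of 768 in replicate 2 lay within 10 nt of their 2 starts. Per gene the median was 43.4%, against 66.7% of the cap-labelled reads within the starts themselves. At the most-read start of the other eligible genes the median was 59.6% of label-only reads, over 2894 genes, where the cap-labelled share was 85.7%. A label-only read lay at both starts in 59 of the 68 members, at the upstream start in 66 and at the downstream start in 61. In the 31 members with 10 or more such reads at the pair, the upstream share was higher than among cap-labelled reads in 19 and lower in 12. The upstream share among label-only reads was highest in CRY2, with 12 upstream and 1 downstream. It was lowest in RABE1c, a Rab GTPase, with 2 upstream and 11 downstream. The label-only share exceeded the cap-labelled one by most in MDH, at 71.4% against 31.7%. It fell short by most in FAB1, at 20% against 50%. A cap beside a genomic G cannot be recognised by the untemplated base, and accordingly 0 of the 136 starts had a G just before their most-read base.

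The bases around the starts were searched for the TATA box, as TATAAA or TATATA on the transcript strand with its first base 20 to 45 nt before the start. It stood at 15 upstream starts (22.1%) and 16 downstream starts (23.5%), at both in 5 genes and at neither in 42. It stood at the most-read start of 33.6% of the 2907 other eligible genes, and at 12.95% of 27443 annotated gene starts. Of the 19 genes with another first intron, 10 had it upstream and 6 downstream, and of the 49 others 5 had it upstream and 10 downstream. KAT5, MS2 and AT4G21910 had it at the upstream start only, AN3, AlaAT1 and GGH1 at the downstream start only, and SWEET3, AT2G33620 and PHT1;6 at both. The last base before and the first base of the transcript were a pyrimidine and a purine at 83.8% of upstream and 92.6% of downstream starts, against 91.8% of the most-read starts of the other eligible genes. These are matches of letters and no evidence of binding.

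The annotation, which the rule did not use, already held part of these starts. Within 100 nt of an annotated 5′ end of the gene lay 41 upstream and 12 downstream starts, and both starts of 8 genes. Of the other downstream starts, 54 lay farther inside the gene. Annotated 5′ ends at least 100 nt apart were present in 30 members (44.1%), against 609 of the 2907 other eligible genes (20.9%). An annotated intron in the 5′ UTR was present in 34 members (50%), against 767 of the others (26.4%). The rule counts distance on the genome with introns included, so this share is not independent of the rule. The members had a median of 33.5 cap-labelled reads (20 to 124) and the others 36 (20 to 3214). The most-read start held a median of 41.5% of the reads in members and 85.7% in the others.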

How the data were processed

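The deposited files hold, for each of 2 replicates, aligned read structures with expected counts made by the authors, who took full-length reads to TAIR10 with minimap2 (introns up to 5000 nt) and labelled their ends with Bookend. Versions are not given in the sources used here. Structures were assigned to genes of the RefSeq annotation of TAIR10.1 on the same strand by exonic overlap. Apparent fusions, with 100 or more exonic nt in each of 2 genes, were dropped (0.15% and 0.237% of nuclear reads). Ties went to the gene with the shorter exon total, which was chosen after seeing the data. The splice sites GT and AG flanked 99.1% of the introns of the members' reads on this build.

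The members and gene lists were chosen with earlier results of these data known. Named genes were the most-read members of each class, those with the largest distances or smallest replicate p, those nearest the rule's limits and the published ones, and others picked by role after their values were seen. Fisher exact tests (scipy 1.17.1) were adjusted over 2975 genes. How large a difference they can call at the members' depth, a median of 5 reads per start and replicate, was not tested. Reads have no molecular identifiers, so Wilson intervals and Fisher p-values cover counting error only. Nothing links a read to a protein.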

Additional observations from a re-analysis of the deposited data

How the results depend on the processing

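The count of 68 genes followed the limits of the rule. At least 10% per site gave 201 genes, of which 22 lost the start codon and 43 changed the first intron, with a median distance of 126 nt, and at least 30% gave 16, 1 and 6 genes. Sites at least 50 nt apart gave 303 genes, 15 with a lost codon and a median of 67 nt, and at least 200 nt gave 15, 3 and 10 genes with a median of 416 nt. With at least 40 cap-labelled reads there were 22, 3 and 5 genes and a median of 141.5 nt. Reads with a 3′ label alone gave 59 genes and a median of 141 nt. Leaving out a replicate gave 21 to 22 genes, 2 with a lost codon, 4 to 5 with another first intron and a median of 138 to 142 nt, over fewer eligible genes. Merging ends within 5 or 20 nt gave 51 and 83 genes, of which 51 and 61 were among the 68. Giving tied reads to the first locus, an alternative chosen after seeing the data, added 1 gene, LUT1, whose downstream start was that of a nested gene. TATAAA alone stood at 13.2% of upstream and 10.3% of downstream starts. No alternative of either Fisher test called a member. Depth was low, with a median of 5 reads per start and replicate. No paired analysis was possible because there was only 1 group.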
